A study of Mus musculus with 6 samples.

Results

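The serpins are a superfamily of protease inhibitors, and the genes described here are those whose symbol begins with Serpin once the accession of an array probe had been matched to a RefSeq gene table. Of 69 such symbols in the table, 54 had a probe, out of 18342 genes with a probe in all. The 54 members fell into clade A (19 genes), clade B (25), clades C, D, G and H (1 each) and clades E, F and I (2 each). RNA of 6 mouse livers was measured, each on 1 single-colour array. All animals were on a BL6 background and carried the Fah_del_tm1Mgo allele, so the controls too lack fumarylacetoacetate hydrolase, an enzyme needed to finish breaking down tyrosine. The mice called Fah carried this allele alone, and the mice called FCR carried in addition Rag2_del_tm1Fwa and the common gamma chain del tm1Wjl, and so have no mature T, B or NK cells. NTBC, a drug that blocks an earlier step of tyrosine breakdown, was supplied in the drinking water at 7.5 μg/ml. One liver of each genotype came from a mouse kept on NTBC throughout (Fah, labelled healthy liver; FCR, labelled normal liver). One of each came from the regimen called off, with 2 courses of withdrawal and resupply, and one of each from the regimen called 2xoff/on, for which the labels do not settle in which phase the liver was taken. The withdrawn Fah samples are labelled tumor and the withdrawn FCR samples inflamed liver, so tumour tissue and genotype cannot be told apart. The sources used here state neither age nor sex, nor whether the samples came from separate animals, and p-values measure the spread between these samples only.

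A serpin inhibits by presenting a loop as bait: the protease cuts it, the serpin changes shape, and the enzyme is trapped in a dead complex. Most clade A serpins, antithrombin, heparin cofactor II, pigment epithelium-derived factor, the plasmin inhibitor and the C1 inhibitor are secreted into plasma by hepatocytes, whereas clade B serpins stay inside the cell and guard it against proteases of its own or of cytotoxic granules. In mice the genes for alpha-1-antitrypsin (Serpina1), alpha-1-antichymotrypsin (Serpina3) and the granzyme B inhibitor (Serpinb9) have each multiplied into a row of close copies.

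Values are on the log2 scale with the 75th percentile of processed signal on each array set to 0, and they are compared between arrays for 1 probe, never between probes. A probe was counted as measured on an array where the scanner software marked it well above background. Of the 54 members, 33 were measured on all 6 arrays, 13 on some and 8 on none. The 8, all in clade B, were Serpinb12, Serpinb13, Serpinb2, Serpinb3a, Serpinb3b, Serpinb3d, Serpinb9b and Serpinb9c. The 43 members measured on at least 2 arrays were tested, 18 of clade A and 15 of clade B among them. Only parts of the copied families had a probe: 3 of 6 Serpina1 symbols, 8 of 14 Serpina3 symbols and 7 of 8 Serpinb9 symbols. Probe sequences were not used here, so whether a probe also binds RNA of another copy was not tested, and the values of these families are uncertain as values of single genes.

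**Figure D1:**
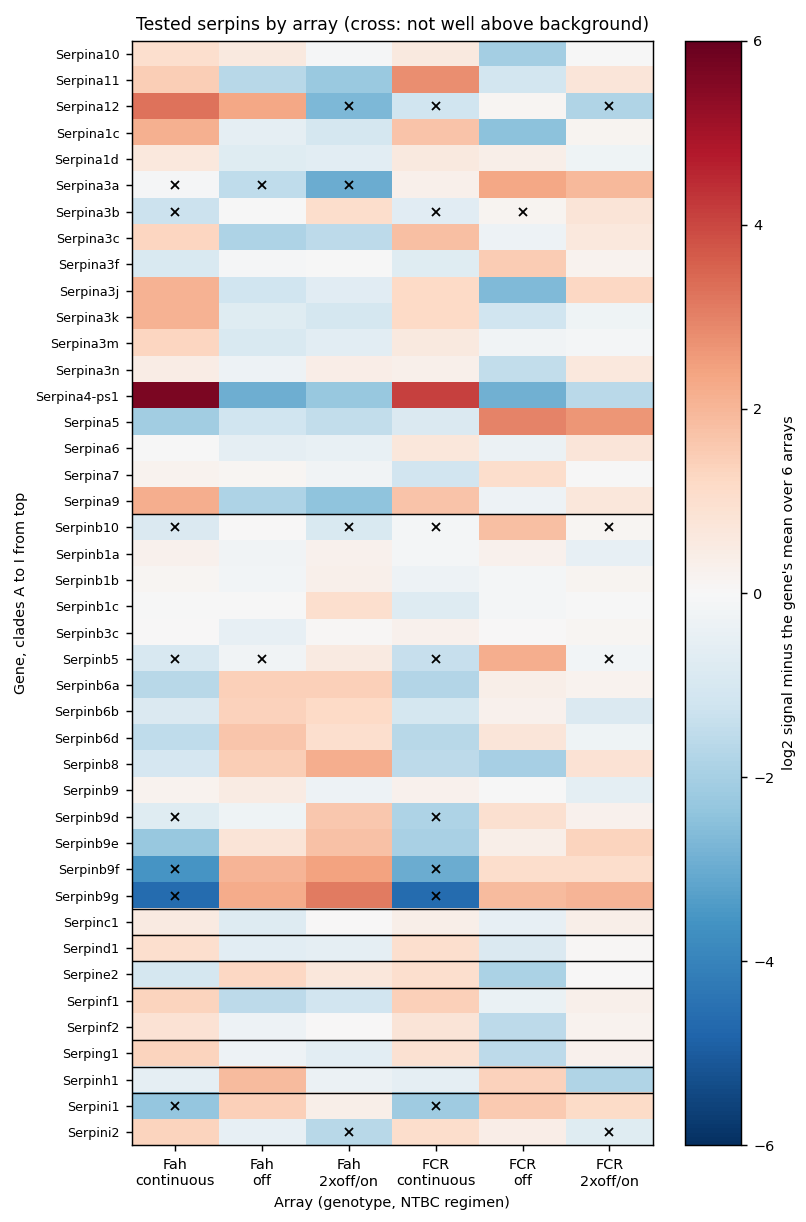
Log2 signal of 42 tested serpins (rows, clades A to I) on the 6 arrays (columns, genotype and NTBC regimen), each as the difference from the gene's own mean, with a cross where the probe was not well above background. Serpinb9f and Serpinb9g are low on the 2 continuous NTBC arrays and Serpina4-ps1 is high there, while Serpina5 is highest on the 2 withdrawn FCR arrays.

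The arrays themselves differed. The labelled liver identity was borne by 5 of 5 measured hepatocyte markers on every array, with a summed level of 1672 to 1821 times the 75th percentile on continuous NTBC and 614 to 1109 in withdrawn livers. Summed markers were higher in all withdrawn than in both continuous livers for neutrophils (11.6 to 37.3 against 0.802 to 1.07), macrophages (19.4 to 64.4 against 12.3 to 14.5), stellate cells and fibroblasts (95.9 to 214 against 35.7 to 37.9), bile duct cells (15.6 to 150.3 against 9.05 to 10.1), mast cells (0.309 to 34.4 against 0.204 to 0.207), platelets and megakaryocytes (1.60 to 6.56 against 0.458 to 0.636) and adipocytes (7.33 to 64.4 against 5.59 to 5.62). Not every marker followed its sum. In the FCR 2xoff/on liver Adgre1 (1.30 against 1.64) and Clec4f (1.37 against 2.61) were below the continuous FCR liver. The other measured macrophage markers were above it, Cd14 furthest (3.08 against -1.50). The adipocyte sum was mostly Fabp4 on every array, while Cfd went from 0.73 to -4.36 and -6.32 in Fah mice. The bile duct sum was mostly Spp1, and Krt7, Krt19, Epcam and Sox9 were likewise higher in every withdrawn liver than in either continuous one. The platelet sum was mostly Pf4. Against the continuous liver of its genotype, every withdrawn liver had higher Ppbp and lower Gp1bb. In FCR mice Fcer1a was lower in both withdrawn livers, Pdgfrb and Des at 2xoff/on and Acta2 in the off liver. The other measured mast cell and stellate markers were higher there. In such bulk samples, fewer cells of a type and less RNA per cell cannot be told apart, and the part of cell composition in the results was not tested. Il2rg, the gene of the common gamma chain, was measured on the 3 Fah arrays only, Rag2 on none and Fah on all 6, and where the Fah probe lies against the deletion is not given here. The FCR off array lay apart on the second principal component (104 against -53.0 to 7.96 on the other arrays), and both 2xoff/on arrays lay on a slide of their own, so regimen and slide cannot be told apart there. The brightest probe reached 446920 to 587717 units of processed signal on every array, while the 75th percentile was 363 to 374 on both continuous arrays and the FCR off array and 722 to 890 on the others. Relative values therefore ended at 9.15 to 10.34, and the part of this ceiling in the differences of the brightest members was not tested. Nor was its part in the summed hepatocyte level, most of which was Alb. Alb was at 10.32 (Fah) and 10.20 (FCR) on continuous NTBC and at 8.79 to 9.97 in withdrawn livers. The dimmer hepatocyte markers Ttr, Apoa1, Apob and Cyp2e1 were also lower in every withdrawn liver than in either continuous one.

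The first question was how serpin RNA differed between livers after NTBC withdrawal and livers kept on the drug. Over both genotypes, 16 of the 43 tested serpins passed, 8 higher and 8 lower after withdrawal. Among all 15382 genes tested 11.9% passed, 8.66% higher and 3.29% lower. The intracellular clade B had 5 members higher and 0 lower of 15 tested, and the largely secreted clade A had 1 higher and 7 lower of 18, with a median difference of -1.30. The median over all genes was -0.02. Serpina3b, Serpini1 and, in clade B, Serpinb5, Serpinb9d, Serpinb9f, Serpinb9g and Serpinb10 were measured on withdrawn arrays only. They thus entered the test through the arrays where they are high, and their fitted differences are taken against values below background. The clade B median of 1.74, which is the value of Serpinb5, therefore measures no size, and it was 0.23 with normexp background correction, 0.27 without a filter on dim probes and 0.52 in the authors' deposited values. For clade A the same settings gave -0.96, -1.20 and -0.71. The test was limma's moderated test with Benjamini-Hochberg adjustment over all genes at 0.05, on 4 group means with 2 residual degrees of freedom. The spread within groups came only from the off and 2xoff/on livers of each genotype, which differ in regimen and slide. The p-values of this fit therefore do not rest on replicates of 1 regimen. Centring each array on its median instead gave 6 serpins higher and 11 lower, and moved the all-gene median to -0.33 and the split over all genes from 1332 higher and 506 lower to 921 and 612. Without the FCR off array the median difference was -1.23 for clade A and -0.03 over all genes, and without the FCR 2xoff/on array -1.27 and 0.01. With all values held at or above a common floor of -5.12 none of the 43 passed (0 of all genes). In the authors' deposited values 9 passed (936 of all genes). The call of Serpini1 was also lost with normexp and in the authors' values, those of Serpina1c, Serpina3k and Serpinf1 with quantile normalization and in the authors' values, that of Serpina5 with the array median and in the authors' values, and that of Serpinb6d with all of these but normexp.

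**Figure D2:**
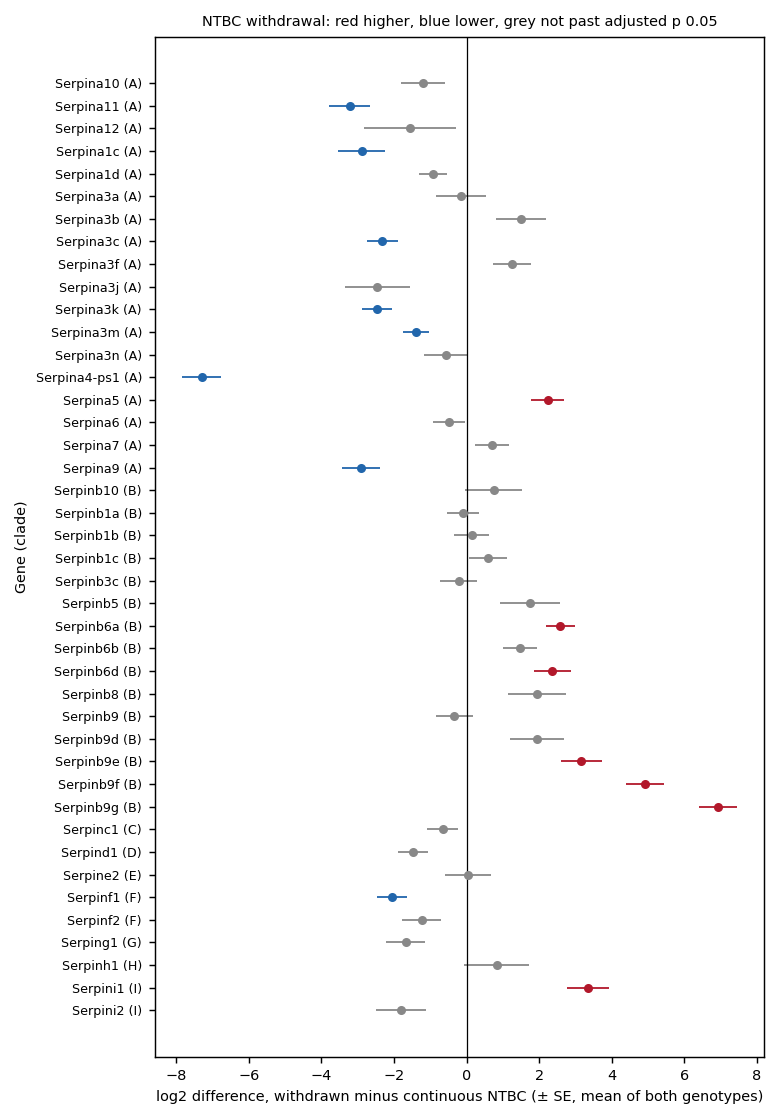
Log2 difference between withdrawn and continuous NTBC (mean of both genotypes, bars ± SE) for 42 tested serpins, in the order of clades A to I. Red points (7) were higher and blue points (8) lower at an adjusted p under 0.05, and Serpina4-ps1 is lowest at -7.30. The points of Serpinb5, Serpinb9d, Serpinb9f, Serpinb9g, Serpinb10, Serpina3b and Serpini1 are drawn against continuous values below background, so how far they lie to the right is not a measured size.

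The steepest rise was in the Serpinb9 cluster on chromosome 13. The promoters of its 3 members that rose are shown because their upstream sequences are nearly the same, with those of Serpinb9d and Serpinb9, which did not pass, for comparison. Each line gives the 250 bases before the annotated start, 5′ to 3′ on the plus strand, from RefSeq on GRCm38.p6. Capitals mark bases that differ from the aligned Serpinb9g base or lie beyond its end. The windows lie at chr13:33484540-33484789 (Serpinb9g), chr13:33323827-33324076 (Serpinb9f), chr13:33249358-33249607 (Serpinb9e), chr13:33192705-33192954 (Serpinb9d) and chr13:33004291-33004540 (Serpinb9).
Serpinb9g: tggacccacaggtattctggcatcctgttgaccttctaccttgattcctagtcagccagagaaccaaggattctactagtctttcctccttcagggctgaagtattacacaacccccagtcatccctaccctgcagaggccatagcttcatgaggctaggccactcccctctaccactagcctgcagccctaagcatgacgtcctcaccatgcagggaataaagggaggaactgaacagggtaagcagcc
Serpinb9f: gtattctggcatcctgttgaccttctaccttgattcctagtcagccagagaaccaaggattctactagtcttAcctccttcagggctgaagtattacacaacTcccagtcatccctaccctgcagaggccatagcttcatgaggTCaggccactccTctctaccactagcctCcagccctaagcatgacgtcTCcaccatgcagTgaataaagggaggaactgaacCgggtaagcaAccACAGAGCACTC
Serpinb9e: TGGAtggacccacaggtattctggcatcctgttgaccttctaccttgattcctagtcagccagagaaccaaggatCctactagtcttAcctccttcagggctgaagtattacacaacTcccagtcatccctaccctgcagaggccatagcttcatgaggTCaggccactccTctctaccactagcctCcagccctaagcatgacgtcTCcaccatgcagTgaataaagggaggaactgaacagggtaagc
Serpinb9d: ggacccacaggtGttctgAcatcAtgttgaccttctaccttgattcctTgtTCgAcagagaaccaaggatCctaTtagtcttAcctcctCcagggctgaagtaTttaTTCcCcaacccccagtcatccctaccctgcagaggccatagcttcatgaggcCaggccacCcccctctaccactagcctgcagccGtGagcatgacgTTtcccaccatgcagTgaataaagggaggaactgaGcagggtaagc
Serpinb9: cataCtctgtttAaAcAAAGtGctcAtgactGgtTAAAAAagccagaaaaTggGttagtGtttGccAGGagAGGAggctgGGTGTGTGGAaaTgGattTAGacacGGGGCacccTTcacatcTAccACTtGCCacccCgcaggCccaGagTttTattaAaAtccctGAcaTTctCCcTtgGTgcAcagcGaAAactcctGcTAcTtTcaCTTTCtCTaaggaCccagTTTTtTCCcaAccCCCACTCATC

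Over the whole promoter window of 300 bases, which runs 50 bases past the start, Serpinb9e and Serpinb9f were 99.3% identical in aligned bases, Serpinb9g was 95.9% identical to Serpinb9e, and Serpinb9d was 93.2% identical to Serpinb9g. Serpinb9, the granzyme B inhibitor for which the family is named, was 75.9% identical to Serpinb9g in the bases that could be aligned.

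Serpinb9g was at -7.28 in the Fah and -7.25 in the FCR liver on continuous NTBC, below background on both. It rose to -0.45 (off) and 0.45 (2xoff/on) in Fah mice and to -0.78 and -0.63 in FCR mice, measured on all 4 arrays. The groups did not overlap. Against the lowest signal that counts as measured on the continuous arrays, the withdrawn mean was at least 34.7-fold higher in Fah mice (adjusted p = 0.00372 by limma) and at least 27.9-fold higher in FCR mice (adjusted p = 0.00614 by limma).

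Serpinb9f behaved alike in order, from -7.02 and -6.47 on continuous NTBC, not well above background, to -1.43 and -1.04 in Fah and -2.43 and -2.42 in FCR livers. The rise was at least 14.7-fold in Fah mice (limma adjusted p = 0.00666) and at least 8.48-fold in FCR mice (limma adjusted p = 0.0357), and the call in FCR mice ended in 5 of 12 alternatives. Over both genotypes the log2 difference under the alternatives ranged from 2.51 to 7.14 for Serpinb9g and from 1.36 to 5.01 for Serpinb9f. Serpinb9e was measured on every array. Its level was -4.62 (Fah) and -4.29 (FCR) on continuous NTBC, -1.56 and -0.61 in withdrawn Fah livers and -1.98 and -1.03 in withdrawn FCR livers. The difference over both genotypes was 3.16 ± 0.55 (SE; limma adjusted p = 0.00838), again with no overlap, and 1.36 to 3.40 under the alternatives. Within Fah mice alone Serpinb9e also passed (3.54 ± 0.78, adjusted p = 0.0377), a call that ended in 7 of 12 alternatives.

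The other probed copies differed from this in their values. Serpinb9d was below background on both continuous arrays and measured on all 4 withdrawn ones (-5.89 and -3.99 in Fah, -4.67 and -5.34 in FCR mice), and did not pass (limma adjusted p = 0.140). Serpinb9 itself lay between -2.58 and -1.49 on the 6 arrays, with the groups overlapping and a difference of -0.35 ± 0.51 (limma adjusted p = 0.738). Serpinb9b and Serpinb9c were below background throughout. Gzmb, the gene of the protease Serpinb9 inhibits, was measured on 4 of 6 arrays and was not called in any withdrawal comparison.

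Serpinb6a, whose human counterpart inhibits cathepsin G, rose from -0.09 in FCR liver and from the 75th percentile itself in Fah liver to 3.09 and 3.12 in Fah and 2.04 and 1.90 in FCR livers. The difference was 2.58 ± 0.40 (limma adjusted p = 0.00524), and all withdrawn livers were above both continuous ones. Serpinb6d rose from -3.12 and -3.27 to 0.05 and -0.60 (Fah) and -0.91 and -1.87 (FCR), by 2.36 ± 0.52 (limma adjusted p = 0.0208). Serpinb6b, the third copy measured, differed by 1.46 ± 0.47 (limma adjusted p = 0.0841), with its FCR 2xoff/on value of -0.04 close to the continuous values of -0.05 and -0.24. The cathepsin G gene Ctsg was at -3.44 and -2.92 on continuous NTBC and between -2.96 and -0.11 after withdrawal.

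The other clade B members did not pass. Serpinb1a, an inhibitor of neutrophil elastase, stayed between 1.29 and 2.04 on all arrays, with a difference of -0.11 ± 0.44 (limma adjusted p = 0.912), while the summed neutrophil markers, given above, were higher in each withdrawn liver than in either continuous one. Serpinb1b, Serpinb1c and Serpinb3c differed by 0.14, 0.60 and -0.22, none of which passed. Serpinb8 was at -4.37 and -4.95 on continuous NTBC, at -1.88 and -1.18 in withdrawn Fah livers, and at -5.34 (off) and -2.50 (2xoff/on) in FCR livers, so it was the FCR off array that lay low. Of those measured on few arrays, Serpinb5 (maspin) was above background in the Fah 2xoff/on and FCR off livers, Serpinb10 in both off livers, and Serpinb11 and Serpinb7 in the Fah 2xoff/on liver. Of 7 squamous epithelial markers, 3 or 4 were measured on each array, and Krt6a, Trp63 and Dsg3 on none. Krt5, a basal keratin, was at -3.23 in the continuous and at 1.59 and 2.07 in the withdrawn FCR livers, against -3.61, -3.14 and -3.16 in Fah livers. Krt76 was measured in the withdrawn FCR livers only (0.22 and 0.09). The summed squamous level was 6.48 and 9.44 there and 3.65 to 4.59 in the other livers, and its part in the values of these serpins was not tested.

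Among the secreted serpins the steepest fall was that of Serpina4-ps1, annotated as a pseudogene of kallistatin. It was at 4.66 in Fah and 3.10 in FCR liver on continuous NTBC and fell to -3.91 and -3.28 in Fah and -3.89 and -2.61 in FCR livers. The groups lay far apart, with a difference of -7.30 ± 0.53 (limma adjusted p = 0.000313). It was -8.25 ± 0.75 in Fah mice (limma adjusted p = 0.00307) and -6.35 ± 0.75 in FCR mice (limma adjusted p = 0.00711). Its second probe, above background on 3 arrays, gave -10.16. Most of its withdrawn values were below background, so that size was not measured.

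The promoters of the Serpina1 copies with a bright probe are shown to give the likeness of genes whose values differed: Serpina1c and Serpina1d were 91.7% identical over their 300-base promoter windows. The lines give the 250 bases before the start, 5′ to 3′ on the minus strand, from RefSeq on GRCm38.p6, at chr12:103904951-103905200 (Serpina1c) and chr12:103773634-103773883 (Serpina1d). Capitals mark bases of Serpina1d that differ from the aligned Serpina1c base or lie beyond its end.
Serpina1c: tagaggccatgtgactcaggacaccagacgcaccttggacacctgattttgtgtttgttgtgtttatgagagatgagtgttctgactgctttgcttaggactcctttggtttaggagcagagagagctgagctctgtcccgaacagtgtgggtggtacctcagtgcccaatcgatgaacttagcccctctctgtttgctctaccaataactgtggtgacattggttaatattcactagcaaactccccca
Serpina1d: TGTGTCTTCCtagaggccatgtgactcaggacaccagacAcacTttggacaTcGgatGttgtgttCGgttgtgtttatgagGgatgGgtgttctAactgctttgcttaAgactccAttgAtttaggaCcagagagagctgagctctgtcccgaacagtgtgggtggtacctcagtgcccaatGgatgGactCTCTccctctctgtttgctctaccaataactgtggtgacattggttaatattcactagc

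The Serpina1c probe, for a copy of alpha-1-antitrypsin, the main plasma inhibitor of neutrophil elastase, read 8.52 (Fah) and 8.09 (FCR) on continuous NTBC, 5.86 and 5.33 in withdrawn Fah livers, and 3.94 (off) and 6.52 (2xoff/on) in withdrawn FCR livers. The difference was -2.89 ± 0.66 (limma adjusted p = 0.0235), without overlap. The Serpina1d probe was among the brightest and read 9.90 and 9.83 on continuous NTBC and 8.54, 8.63, 9.61 and 8.98 after withdrawal. Its difference of -0.93 ± 0.38 did not pass (limma adjusted p = 0.163), and its processed signal, 283504 to 363326 units, varied less than the scaling between arrays. Serpina1f was above background in the FCR off liver only.

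Of the 8 probed Serpina3 copies, the alpha-1-antichymotrypsin family, 3 fell. Serpina3k, also known as contrapsin, went from 9.97 and 9.08 on continuous NTBC to 7.13 and 6.81 in Fah and 6.67 and 7.64 in FCR livers (-2.46 ± 0.42, limma adjusted p = 0.00757). Its processed signal fell from 363293 to 113852 and 99529 in Fah mice and from 202569 to 36956 and 143806 in FCR mice, so it was lower also without scaling. Serpina3c fell from 6.85 and 7.39 to 3.74 and 3.98 (Fah) and 5.29 and 6.19 (FCR), with a difference of -2.32 ± 0.42 (limma adjusted p = 0.00939). Serpina3m fell from 9.70 and 9.03 to values between 7.50 and 8.31 (-1.40 ± 0.37, limma adjusted p = 0.0407), a call that ended in 10 of 15 alternatives. In FCR mice its processed signal was 194590 on continuous NTBC, 108991 off and 229068 after 2xoff/on, so there the relative value at 2xoff/on was lower while the processed signal was higher.

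The other Serpina3 copies did not pass. Serpina3n, the copy best known as induced in injury, lay between 2.36 and 4.49 on all arrays (difference -0.58 ± 0.60, limma adjusted p = 0.615), although its promoter window was 93.5% identical to that of Serpina3c. Serpina3j had its lowest value in the FCR off liver (1.35) and 5.25 in the FCR 2xoff/on liver. Serpina3f differed by 1.25, and Serpina3b was measured on 3 arrays, all of withdrawn livers. Among the 13 acute phase proteins listed, 1 rose (Lcn2, 6.21) and 1 fell (Fga, -1.89).

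Serpina11 fell from 3.72 and 5.01 to 0.53 and -0.01 in Fah and 1.11 and 2.95 in FCR livers (-3.22 ± 0.56, limma adjusted p = 0.00823). Serpina9, or centerin, first described in germinal centre B cells, was at 0.27 and -0.18 on continuous NTBC. It fell to -3.74 and -4.32 in Fah and to -2.22 and -1.20 in FCR livers (-2.92 ± 0.53, limma adjusted p = 0.00933). The groups did not overlap for either gene.

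A further 4 serpins of clade A, hormone carriers among them, did not pass. Serpina6, corticosteroid-binding globulin, lay between 4.84 and 6.10 (difference -0.49 ± 0.43, limma adjusted p = 0.543). Serpina7, thyroxine-binding globulin, lay between -0.33 and 1.86. Serpina10, the protein Z-dependent inhibitor of factor X, had its lowest value, -0.93, in the FCR off liver and lay between 1.04 and 2.16 elsewhere. Serpina12, or vaspin, an adipokine, was measured at -2.09 in the Fah continuous, -2.99 in the Fah off and -5.21 in the FCR off liver only. The summed adipocyte markers were 5.62 in the first, 7.33 in the second and 64.4 in the third of these livers, and in the third they were nearly all Fabp4, with Adipoq at -4.28, Plin1 at -3.99, Cfd at -3.41 and Retn below background.

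The single exception in clade A was Serpina5, protein C inhibitor, which was higher after withdrawal over both genotypes (2.23 ± 0.46, limma adjusted p = 0.0162) while its groups overlapped. Its values are given with the genotypes.

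**Figure D3:**
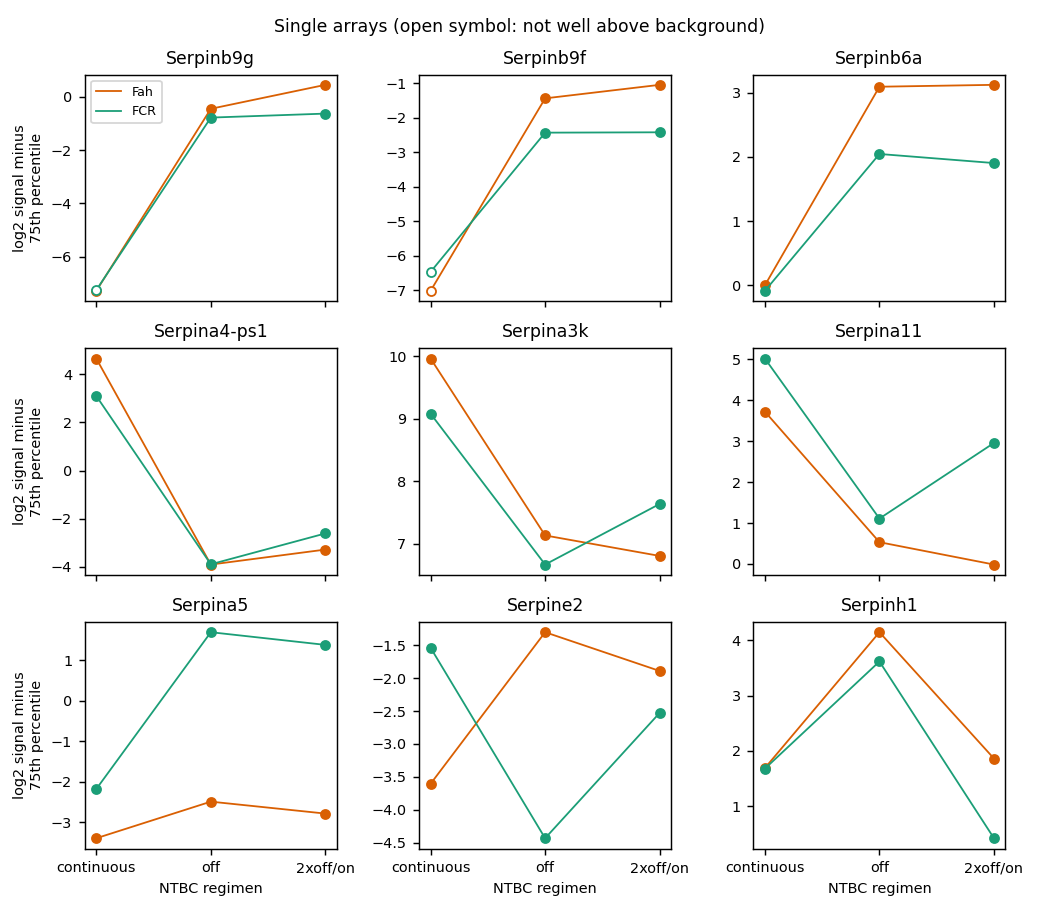
Log2 signal minus the array's 75th percentile (vertical axes, scaled per gene) of 9 serpins on single arrays by NTBC regimen, with Fah in orange and FCR in green and open symbols where the probe was not well above background. The top row lay higher and the middle row lower after withdrawal in both genotypes, Serpina5 lay higher in FCR livers, Serpine2 lay higher after withdrawal in Fah and lower in FCR livers, and Serpinh1 was highest in the off livers.

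Clades C, D, F and G hold the plasma inhibitors of clotting, fibrinolysis and complement. Serpinf1, pigment epithelium-derived factor, which has no inhibitory activity, was the one of them that passed. It fell from 7.27 and 7.36 to 4.39 and 4.80 in Fah and 5.57 and 6.27 in FCR livers (-2.06 ± 0.41, limma adjusted p = 0.0136). Serpinc1, antithrombin, differed by -0.66 ± 0.43 (limma adjusted p = 0.395). Serpind1, heparin cofactor II, was at 6.95 and 6.96 on continuous NTBC and between 5.08 and 6.03 after withdrawal, a difference of -1.49 ± 0.42 just outside the threshold (limma adjusted p = 0.0522). Serpinf2, the plasmin inhibitor, differed by -1.24 ± 0.53 (limma adjusted p = 0.180) and Serping1, the C1 inhibitor, by -1.68 ± 0.54 (limma adjusted p = 0.0801). All 5 genes had a negative difference on the scaled values, and in the off livers their processed signal was lower too. At 2xoff/on the processed signal of Serpinc1 was higher than on continuous NTBC (232389 against 132300 in Fah, 231546 against 121545 in FCR mice). Serpinf2 was also higher there (59531 against 43536, 55212 against 41882). So were Serping1 (27284 against 22053) and Serpind1 (47116 against 46643) in FCR mice only, while Serpinf1 was lower.

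Several of the proteases that such inhibitors meet in plasma fell. Of 10 coagulation proteases 6 fell and 0 rose (median -1.69), Klkb1 (-3.43) and F7 (-2.81) furthest and F2, prothrombin, by 1.60 on the log2 scale. Of 8 complement proteases 3 fell (Cfd, C2 and Cfb) and 0 rose. These lists were chosen with results of these data known. Most of their genes are, like the plasma serpins, made by hepatocytes, whose summed markers were lower in the same livers, but Cfd is an adipocyte marker here. The part of cell composition in these falls was not tested.

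Genes listed for the plasminogen system moved in both directions. Plat, tissue plasminogen activator, was at -2.60 and -2.63 on continuous NTBC and between 1.71 and 3.17 after withdrawal, and Plaur, the urokinase receptor, was at -3.07 and -2.80 and then between 0.39 and 3.32. Of the 7 genes of the plasminogen list 3 rose (Plat 4.99, Plaur 4.72 and Thbd 3.08) and 1 fell (Vtn, -1.66). Thbd, though on this list, is the gene of thrombomodulin, a thrombin receptor. Plg, plasminogen, differed by -1.48 (limma adjusted p = 0.0553).

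Serpine2, protease nexin 1, had no difference over both genotypes (0.03 ± 0.64) over livers in which its values lay on opposite sides: -3.61 on continuous NTBC and -1.30 and -1.89 after withdrawal in Fah mice, against -1.54 and then -4.43 and -2.53 in FCR mice. Serpini1, neuroserpin, an inhibitor of tissue plasminogen activator known from neurons, was below background on continuous NTBC (-5.94 and -5.74) and measured in all 4 withdrawn livers (-2.20 and -3.27 in Fah, -2.07 and -2.49 in FCR). It entered the test through the withdrawn arrays, where it is high, and passed over both genotypes against values below background (limma adjusted p = 0.00812). It was at least 5.21-fold higher in Fah and at least 9.34-fold higher in FCR mice, neither of which passed alone (limma adjusted p = 0.0603 and 0.0795). The call over both genotypes ended with normexp, at the common floor and in the authors' values, and the log2 difference ranged from 0.67 to 3.70 under the alternatives. The summed neuron markers were not higher in withdrawn livers (0.410 to 0.839 against 1.25 to 1.44). Syt1 and Stmn2 were lower in each withdrawn liver, Tubb3 was higher in all but the FCR off liver, and Snap25 was below background throughout. The part of such cells in the Serpini1 values was not tested. Serpini2, a serpin of exocrine pancreas, was measured on both continuous arrays and both off arrays and differed by -1.81 ± 0.69 (limma adjusted p = 0.135).

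Within single genotypes, 11 serpins passed in Fah mice, 5 higher (Serpinb6a, Serpinb9e, Serpinb9f and Serpinb9g among them) and 6 lower (Serpina11, Serpina3c, Serpina3k, Serpina4-ps1, Serpina9 and Serpinf1), where 5.06% of all genes did (3.93% higher, 1.13% lower). In FCR mice 5 passed, among them Serpina5, Serpinb9f and Serpinb9g higher and Serpina4-ps1 lower, where 1.76% of all genes did (1.55% higher, 0.202% lower). Each of these comparisons sets 2 arrays against 1, and the lone array was assumed to vary like the others. Under 12 alternatives the calls of the members named here ended in 1 (Serpina4-ps1 in each genotype) to 8 (Serpinf1 in Fah mice). Without the FCR 2xoff/on array the clade A median in FCR mice went from -0.76 to -1.43. Without the Fah 2xoff/on array that in Fah mice went from -2.11 to -1.40. With 1 array on each side, no conclusion is drawn from counts of these 2 fits. Such counts enter only the ranges over left-out arrays given with the processing. A gene that passed in 1 genotype is not thereby shown to differ from the other. The test of that difference called 0 serpins and 0 of all genes (limma; 332 genes had an unadjusted p under 0.05). With slide as a block it called 1 serpin and 97 of 15382 genes.

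The remaining inhibitors and their proteases give the setting. Of 21 measured inhibitors outside the serpin family 5 rose and 3 fell after withdrawal. Those that rose furthest were Slpi (5.41), which inhibits neutrophil elastase, and Spink1 (5.30), a trypsin inhibitor, and those that fell were Itih1, Mug1 and Mug2, plasma proteins of the liver. Of 7 membrane serine proteases St14 (4.27), Tmprss4 (4.52) and Tmprss2 (3.53) rose. Of 9 measured granule proteases 4 rose, all of mast cells (Cpa3, Cma1, Tpsb2 and Mcpt4), and these were high in tumours: Cpa3 was at 0.63 and 2.72 there and at -5.60 and -4.49 in inflamed FCR livers. Of 12 genes for collagen and its folding 6 rose, and 0 fell.

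The next question was how the genotypes differed. On continuous NTBC, with 1 liver each and no test, 34 serpins were measured in both. Of these, 6 differed by more than 1 on the log2 scale, where 5.04% of all measured genes did. Among them, Serpina4-ps1 (by 1.56) and Serpina7 (by 1.34) were higher in Fah liver, and Serpina5 (-1.21), Serpina11 (-1.30) and Serpine2 (-2.07) were higher in FCR liver, as Fah minus FCR. Over the 3 pairs of livers of the same regimen, 1 serpin passed of 43, where 0.293% of all genes did (0.13% higher in Fah liver, 0.163% lower).

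**Figure D4:**
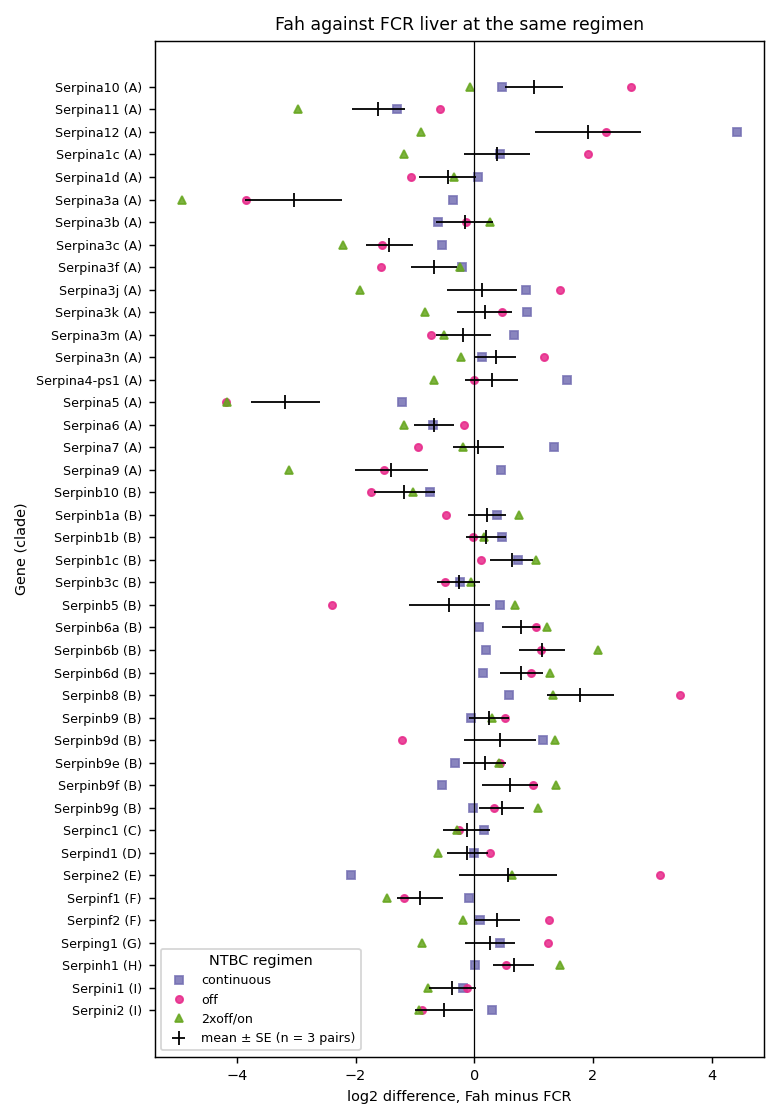
Log2 difference between Fah and FCR liver at the same NTBC regimen for 42 tested serpins (squares continuous, circles off, triangles 2xoff/on), with the mean of the 3 pairs and its SE in black. All 3 pairs lie below 0 for Serpina5, and the 3 pairs for Serpine2 lie on both sides.

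Between withdrawn livers alone, Serpina5 was the 1 serpin that passed, where 0.208% of all genes did (0.065% higher in tumours, 0.143% lower). Protein C inhibitor RNA was at -2.49 and -2.78 in tumours, close to the -3.39 of the Fah liver on continuous NTBC, and at 1.69 and 1.37 in inflamed FCR livers, above the -2.18 of the FCR liver on continuous NTBC. The difference was -4.17 ± 0.53, tumour minus inflamed liver (limma adjusted p = 0.0296), with no overlap, a call that ended in 5 of 15 alternatives. Its second probe, measured on 3 arrays and below background in the Fah 2xoff/on liver (-7.43), gave -3.44, so that size was not measured. In FCR mice the rise with withdrawal was 3.71 ± 0.65 (limma adjusted p = 0.0309), and in Fah mice the difference was 0.75 ± 0.65 (limma adjusted p = 0.651). The difference of these 2 responses was -2.95 ± 0.92 and did not pass (limma adjusted p = 1.000, unadjusted p = 0.0110 by the same fit).

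Other differences between tumour and inflamed liver did not pass. Serpina3a was below background on all 3 Fah arrays and measured on all 3 FCR arrays (-5.24, -3.20 and -3.59), at least 7.88-fold higher in inflamed livers than in tumours (limma adjusted p = 0.0860). Serpina9 differed by -2.32 ± 0.61 (limma adjusted p = 0.232). Higher in tumours were Serpinb8 (2.39 ± 0.92, limma adjusted p = 0.457), Serpine2 (1.88 ± 0.74, limma adjusted p = 0.470) and Serpinb6b (1.61 ± 0.55, limma adjusted p = 0.376). Over the 3 pairs, Serpina5 differed by -3.18 ± 0.58 (limma adjusted p = 0.110) and Serpina11 by -1.61 ± 0.44, and in the other direction Serpinb8 by 1.79 ± 0.57, Serpinb6b by 1.14 ± 0.38 and Serpina10 by 1.01 ± 0.49. Serpinb9g, Serpinb9f and Serpinb9e, which rose in both genotypes, differed between them by 0.46, 0.61 and 0.17, and none passed; for the first and second of these the continuous pair was below background.

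The comparison stated by the series set both tumours against the FCR liver on continuous NTBC and the inflamed FCR liver of the 2xoff/on regimen, and called 0 of 40 tested serpins and 0% of all genes (limma; 1751 genes had an unadjusted p under 0.05). The clade A median was -1.39, and it was -1.31 without the inflamed FCR array of that set and -0.80 without the normal FCR array. The largest values were Serpinb9g (3.94 ± 2.07), Serpinb9f (3.20 ± 1.33) and Serpinb6d (2.29 ± 0.65) toward the tumours, and Serpina4-ps1 (-3.84 ± 1.79) and Serpina11 (-3.72 ± 0.73) toward the FCR livers, where Serpina3a was measured and in the tumours was not. Serpinb9g and Serpinb9f were below background in the FCR liver on continuous NTBC. For Serpinb9g, Serpinb9f and Serpina4-ps1 the 2 FCR arrays of this set lay far apart, at -7.25 and -0.63 for the first, and 1 of them is a continuous and 1 a withdrawn liver.

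The last comparison set the off regimen against 2xoff/on within the withdrawn livers. Of the 43 serpins 1 passed, where 0.793% of all genes did (0.104% higher off, 0.689% lower): Serpinh1, the collagen chaperone also called HSP47, which assists procollagen folding in the endoplasmic reticulum. It was at 1.69 and 1.68 on continuous NTBC, at 4.15 (Fah) and 3.62 (FCR) off, and at 1.86 (Fah) and 0.42 (FCR) after 2xoff/on. Both off livers were above all others, and the difference was 2.74 ± 0.42 (limma adjusted p = 0.0312). Regimen and slide cannot be told apart in it, and the call ended in 4 of 9 alternatives. Of its client and partner genes, 0 of 12 in the list for collagen and its folding passed, 11 with a positive difference and Col1a1 with 2.28 (limma adjusted p = 0.121). As a heat shock protein by name it was also set beside 8 heat shock chaperones, of which 0 passed and 7 had a positive difference, up to 1.15 for Hsph1. Toward 2xoff/on lay Serpina3j (-2.22 ± 0.72), Serpinb8 (-1.77 ± 0.69) and Serpina3n (-1.44 ± 0.43), with adjusted p values by limma of 0.166 to 0.254. Serpina12, Serpinb10 and Serpini2 were measured in both off and in neither 2xoff/on liver, so the size of their differences was not measured, and they did not pass (limma adjusted p = 0.177 to 0.363).

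Promoter letters were compared with the patterns of change as a description. RefSeq promoter windows were matched for 44 of the 54 members, 53 windows in all. A STAT half-palindrome pair (TTCNNNGAA) occurred in windows of Serpina11, Serpina1f, Serpina3f, Serpinb2, Serpinb6a and Serpinb9c, and in 8.30% of 32851 promoters of the same length. The AP-1 pattern (TGANTCA, 7.81% of promoters) stood in those of Serpina1c and Serpina1d among others, the antioxidant response pattern (TGACNNNGC, 12.4%) in those of Serpinb12, Serpinb6a and Serpind1, and the TATA box (TATAAA, 13.6%) in those of 14 members, Serpina3a, Serpina3b, Serpina3c and Serpina3f among them. Both strands were searched. None of these 4 patterns was found in the windows of Serpinb9e, Serpinb9f or Serpinb9g, nor in those of Serpinb9, Serpinb9b or Serpinb9d. This says only that these letters are not there.

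Where a member had more than 1 probe, the probes could be compared. Among the 14 such members, the second probe gave the same direction of the withdrawal difference for Serpina4-ps1, Serpina5, Serpinf1 (-2.72 against -2.06) and Serpinc1 (-1.25 against -0.66). It gave 0.59 against -0.35 for Serpinb9 and -0.61 against 0.60 for Serpinb1c, so these probes disagreed in direction. For Serpinb8 it gave 0.14 against 1.94, the same direction with a smaller size. For Serpinb10 it gave -0.41 against 0.75, from a probe below background on every array.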

How the data were processed

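Single-colour Agilent arrays of 6 mouse liver RNAs were used. Per the file headers, arrays were read with Feature Extraction 10.7.3.1 on a probe design annotated on mm9, and the submitters' processing notes name version 10.5. The deposited intensity of each spot is background-subtracted by that software per the file headers and not equalised between arrays. A further table deposited by the authors gives log2 values with array medians of 6.46 to 6.48, used as an alternative only; its scale matched log2 median signals of the same arrays (r = 0.996 to 0.999), and how its arrays were equalised is not given here.

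Control and outlier spots were dropped, spots of a probe averaged, and 29 probes missing on an array left out. No spot was saturated. The log2 of the processed signal, less that of the 75th percentile of its array, was analysed. Unversioned accessions, looked up in RefSeq genes of GRCm38.p6, named 26912 of 41145 probes, and a gene was represented by its probe of highest mean. A gene entered a fit if measured on 2 or more of its arrays, and R 4.3.3 with limma 3.58.1 gave the tests (lmFit, eBayes with a trend, two-sided), on 4 group means, on genotype with regimen as a block, or on the 4 arrays of the series' own comparison. Replicate numbers follow sample order and pair nothing. Fits were tested on simulated data. The number of arrays limits the precision.

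"At least" folds set the bright group's mean against the higher of the dim probe's signal and the lowest signal well above background on each array of the dim group. Full statistics were given for members that passed or, where fewer than 3 did, for the 3 largest differences each way among members measured on every array of the higher group. Counts cover all members, of which 1 is otherwise not reported here. Members and lists were chosen with earlier results of these data known. Alternatives were normexp background correction (offset 50), array median, quantile normalization, no filter or a stricter filter on dim probes, the mean of a gene's probes, no trend, a common floor of -5.12, the authors' values, slide as a block, no block or no interaction, and leaving out arrays or regimens.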

Additional observations from a re-analysis of the deposited data

Results flagged for a closer look

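For 3 tested serpins every withdrawn array of one genotype lay above its continuous array and every withdrawn array of the other genotype below. Serpine2, protease nexin 1, was higher by 2.30 and 1.72 on the log2 scale after withdrawal in Fah mice, and changed by -2.90 (off) and -0.99 (2xoff/on) in FCR mice. The difference of the responses, Fah minus FCR, was 3.95 (limma interaction, adjusted p = 1.000, unadjusted p = 0.0130). Serpina3a, a copy of alpha-1-antichymotrypsin, met this by its fitted values only (-4.01; limma interaction, adjusted p = 1.000, unadjusted p = 0.0181). It was below background on every Fah array, where values have no order, so no fall in Fah mice was measured and the difference is not a measured size; in FCR mice it was higher by 2.04 and 1.65 after withdrawal. Serpina7, thyroxine-binding globulin, changed by -0.08 and -0.43 in Fah mice and by 2.19 and 1.10 in FCR mice, a difference of -1.90 (limma interaction, adjusted p = 1.000, unadjusted p = 0.0779). None of the 3 passed the test of the difference. No group held enough samples for a test of single outlying arrays.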

How the results depend on the processing

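Each count of serpins past the threshold was recomputed under the alternatives. Counts over all genes tested, 15382 unless stated, follow in parentheses. With values at a common floor 0 serpins passed in every comparison, also among members far above it, and the cause was not tested. With the authors' values 9 (936) passed for withdrawal over both genotypes, 4 (263) in Fah mice and 1 (54) in FCR mice. In the tumour and pair comparisons 0 passed (4 and 10). Quantile normalization left 5 (472) in Fah mice and 2 (117) in FCR mice. It left 0 between tumour and inflamed liver (12), over the 3 pairs (13) and for off against 2xoff/on (56). The array median left 3 (220) in FCR mice and called 2 (80) between tumour and inflamed liver and 2 (77) over the 3 pairs. Normexp called 2, 4 and 3 in the tumour, pair and off comparisons (191, 349 and 658). Without a filter 6 passed in Fah mice (565 of 18342) and 2 (159) in FCR mice. It gave 0 (11) in the tumour comparison and 2 (73) over the pairs, and a stricter filter left 0 over the pairs (36 of 14297). The mean of a gene's probes left 0 in the tumour, pair and off comparisons (39, 27 and 47). Without a trend 7 (762) passed in Fah mice and 0 over the pairs (29) and for off (127). Slide as a block gave 19 in Fah mice, 16 in FCR mice, 1 for the difference of responses and 9 between tumour and inflamed liver. Among all 15382 genes 2544, 1909, 97 and 984 passed, in the same order. Over the pairs, no block and slide in place of regimen each gave 0 (1 and 0).

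Leaving out single arrays gave 16 to 25 for both genotypes, 6 to 10 in Fah mice, 5 to 21 in FCR mice, 0 for the difference of responses, 1 to 7 between tumour and inflamed liver and 0 to 17 for the series' own comparison; the highest values of 25, 21, 7 and 17 came without the FCR 2xoff/on array. Within a single genotype, leaving out a withdrawn array of that genotype sets 1 array against 1. No conclusion is drawn from those counts. Leaving out regimens gave 0 to 9 over the pairs, 9 without continuous, 0 without off and 4 without 2xoff/on. Among all genes 1013, 0 and 328 passed, in the same order. Among 470 values of the 35 single calls under these settings, 345 stayed past the threshold, 125 did not and 0 changed sign. For off against 2xoff/on the array median moved the split over all genes from 16 higher and 106 lower to 128 and 108. Replicate numbers are not in the labels and paired nothing; livers were paired by regimen only, over the 3 pairs.

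With 2 residual degrees of freedom, a serpin that did not pass cannot be called unchanged. Below background a probe gives a bound only.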
